A study of Mus musculus with 28 samples.

Results

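Oxidative phosphorylation makes most ATP in respiring cells, and it runs in the inner mitochondrial membrane. Complex I takes electrons from NADH and complex II takes them from succinate, complex III passes them to cytochrome c, complex IV hands them to oxygen, and complex V, the ATP synthase, uses the proton gradient so built to make ATP. Most subunits are encoded in the nucleus and a small core in mitochondrial DNA, so both sets of transcripts are needed for a working chain. In the neural lineage, reliance on oxidative phosphorylation is known to grow as stem cells differentiate into neurons.

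The nuclear genes described here are the 79 of 17295 in the table whose names match the subunit families Ndufa, Ndufb, Ndufc, Ndufs and Ndufv followed by a number, Sdha to Sdhd, Uqcr, Cox4 to Cox8 with a letter, or Atp5, together with Cyc1 and Cycs. They comprise 37 genes of complex I, 4 of complex II, 9 of complex III, 11 of complex IV, 17 of complex V and cytochrome c itself. The choice went by name alone, which has known consequences. Ndufa4 is counted with complex I although its protein is now known as a complex IV subunit, Ndufa4l2 is its hypoxia-inducible paralogue, Cox7a2l joins complexes into supercomplexes, Atp5s is a coupling factor of the ATP synthase, and the subunits Cox4i1 and Ndufab1 are missed. Tests were run on the 78 members whose values averaged 10 or more across libraries. Cox6b2, the testis form of a complex IV subunit, lay between 0 and 28 and was not.

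Transcripts were sequenced from 28 mouse libraries in 14 groups of 2, and all groups are compared below. Lines of induced neural stem cells (miNSC) made up 10 groups. Fibroblasts had been turned into them by lentiviral transcription factors that doxycycline switches on through M2rtTA. Doxycycline was given at 1 μg/mL for 18 days in neural stem cell medium with N2, B27, bFGF and EGF, and colonies were picked on day 20 and expanded on Matrigel. F in a cocktail name is eSox17FNV, B, K and M are the letters the labels give for the other factors, and 4F is all of them together. The lines were a 4F line from ear fibroblasts of 1.0-year Sox2-GFP mice, a 4F line at passages 18 and 8 with BKF and KMF lines from tail-tip fibroblasts of the same age and strain, BKF and KF lines from embryonic fibroblasts (MEF) of ICR mice, and BKF, KMF and KF lines from Sox2-GFP MEF. Neural stem cells (NSC) came from 2.5-year Sox2-GFP mice at passages 2 and 5. The fibroblasts, all Sox2-GFP, were skin cells at 2.5 years and tail-tip cells at 2.5 and 1.0 years. No embryonic or ear fibroblasts and no ICR fibroblasts are among them, so strain, tissue of origin and age are all matched only between the tail-tip lines and the tail-tip cells of 1.0 years. The labels do not say whether the 2 libraries of a line came from separate colonies or cultures, so p-values measure the spread between libraries, which may be technical.

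The deposited values are whole-number scores with a sum between 15563679 and 15571626 in every library, and sequencing depth is unknown. Whether they are scaled by transcript length is not stated, so a level is compared between samples and never between genes. Markers of neural stem cells such as Sox2 and Nes (12 genes) summed to 68478 to 152496 in miNSC libraries and 93718 to 141127 in NSC libraries, against 402 to 831 in fibroblasts, where Hes5, Olig2, Sox1 and Sox2 were at 0. Fibroblast markers (12 genes) summed to 1186 to 6043 in miNSC and 1576 to 2763 in NSC, against 240928 to 325643 in fibroblasts. Neuron markers (6 genes) summed to 16302 to 33431 in miNSC, 35511 to 94882 in NSC and 637 to 2689 in fibroblasts. In bulk samples such as these, fewer cells of a type and less RNA per cell cannot be told apart.

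Across the 14 groups the members varied moderately. The ratio of the highest to the lowest group mean had a median of 2.16 over 77 members, was under 2 for 30 of them and at least 3 for 14, and the lowest was 1.39. Atp5g2 had the widest ratio, 9.68, ahead of Ndufc2 with 8.25, Ndufa11 with 5.17 and Uqcr11 with 5.05. Among the 10 miNSC groups 54 of 78 members (69.2%) varied by an F test (limma, adjusted p under 0.05), and 68.2% of all 16275 tested genes did, so the members' share was close to the background. Their log2 range over these groups had a median of 0.86, against 1.16 for all tested genes. Of the members, 31 were highest in the tail-tip 4F line at passage 8 and 20 in the tail-tip BKF line, of these 10 groups, and 45 were lowest in the tail-tip KMF line. The BKF count rested on its second library. Without that library, an alternative chosen after seeing the data, 4 members were highest in BKF and 37 in 4F at passage 8, without the first 46 and 14, and without the BKF line 38 were highest in 4F, while 45 stayed the count lowest in KMF each time.

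**Figure D1:**
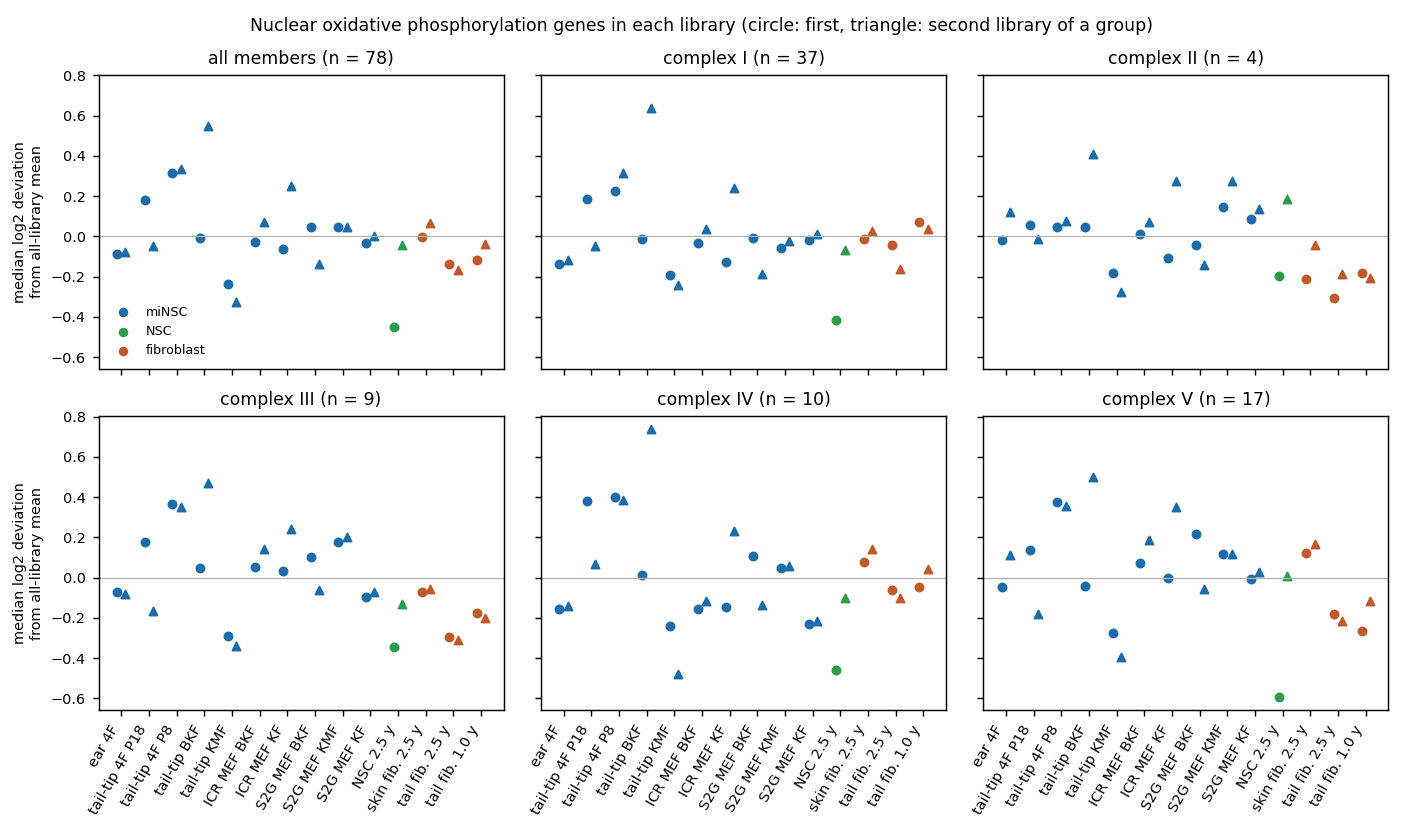
Median deviation of the members from their mean over all libraries, on the log2(value + 1) scale, for each of the 28 libraries (points, 2 a group) and for each complex. The second library of the tail-tip BKF line stands at 0.55 and those of the tail-tip KMF line at -0.23 and -0.32, while the passage 2 library of NSC lies lowest at -0.45.

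Members moved as a block between libraries of some groups. In the tail-tip BKF line the second library exceeded the first for 76 of 78 members, by a median of 0.56 on the log2 scale. NSC at passage 5 exceeded NSC at passage 2 for 66 members, by a median of 0.54, and the second ICR KF library exceeded the first for 75, by 0.32. The second library was below the first for 72 members in the tail-tip 4F line at passage 18, with a median shift of -0.221. In the Sox2-GFP MEF BKF line it was below for 73, with a median shift of -0.185. Members have short transcripts, with a median of 693.5 nucleotides against 2133 for all tested genes, and 60 lie in the shortest 2 length deciles. Other genes of those deciles moved by medians of 0.12 in tail-tip BKF, 0.11 in NSC and 0.019 in ICR KF. Other genes of the longest 2 deciles moved by -0.19, -0.14 and -0.12. At passage 18 and in Sox2-GFP MEF BKF the short ones moved by 0.045 and -0.027 and the long ones by 0.03 and 0.064. Of the members, 45 lie in the shortest decile alone, so these genes are not matched to them in length. The part of transcript length in the shifts was not tested. Results that rest on the tail-tip BKF or NSC libraries are given with and without them. Counts of calls from altered fits, or with a library left out, stand without the share of all tested genes under the same fit. A change in such a count is therefore not read as a result about the members.

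The c subunit of the ATP synthase, which forms its rotating ring, is encoded by Atp5g1, Atp5g2 and Atp5g3. Their mature proteins are the same and their targeting peptides and promoters differ, and so did their levels across the lines. The bases before 1 annotated start of each are shown because the 3 genes did not move together in all comparisons. They are from RefSeq on GRCm38.p6, 250 bases ending at the base before the start, 5′ to 3′ along the gene. All lie on the minus strand, and capitals mark a motif match. The Atp5g2 window lies wholly inside the GENCODE span of its gene, chr15:102662864-102672352, so the outermost start of that gene lies further upstream.
Atp5g1 (chr11:96075632-96075881): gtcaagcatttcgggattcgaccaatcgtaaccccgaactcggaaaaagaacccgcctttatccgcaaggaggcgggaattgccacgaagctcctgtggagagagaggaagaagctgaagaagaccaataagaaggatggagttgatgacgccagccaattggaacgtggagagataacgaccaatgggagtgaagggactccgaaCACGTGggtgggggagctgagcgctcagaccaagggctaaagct
Atp5g2 (chr15:102671048-102671297): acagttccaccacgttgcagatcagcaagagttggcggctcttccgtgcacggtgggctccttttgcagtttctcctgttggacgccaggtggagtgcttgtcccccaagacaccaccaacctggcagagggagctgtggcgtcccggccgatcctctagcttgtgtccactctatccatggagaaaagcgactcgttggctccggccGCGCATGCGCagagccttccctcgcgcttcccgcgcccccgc
Atp5g3 (chr2:73911327-73911576): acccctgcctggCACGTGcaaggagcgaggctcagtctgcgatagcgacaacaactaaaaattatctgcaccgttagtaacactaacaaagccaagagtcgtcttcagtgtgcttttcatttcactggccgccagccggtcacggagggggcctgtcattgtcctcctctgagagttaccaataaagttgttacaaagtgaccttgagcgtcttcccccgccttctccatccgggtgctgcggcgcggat

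Atp5g1 and Atp5g3 carry the E-box CACGTG, and Atp5g2 carries the NRF1 motif, which was searched as GCGC, any 2 bases and GCGC. Both strands of a window from 250 bases before to 50 after each start were searched for these and for the GABPA motif CCGGAAG, none of which overlaps another in the bases printed. Of the 79 members, 64 were found in the promoter table, with 69 windows. The NRF1 motif stood in 27.5% of the members' windows and 6.2% of all 32851 windows, the GABPA motif in 23.2% and 8.9%, and the E-box in 8.7% and 7.2%. A match describes the letters in a window and is no evidence of binding.

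All miNSC lines were compared with all fibroblasts to see what the change of cell state does to the chain. Of 78 members 33 were higher and 16 lower in miNSC (limma, adjusted p under 0.05), with 76.5% of all tested genes called, 42.8% higher and 33.7% lower. The median log2 fold change of the members was 0.15 and that of all tested genes 0.096. With the values corrected for transcript length 46 were higher and 9 lower, and with each group's mean as 1 sample 17 were higher and 4 lower. Without the tail-tip BKF line in the comparison and NSC in the fit 62 members were called (37 higher, 25 lower). By complex, 14 rose and 11 fell of 37 in complex I, 3 rose of 4 in complex II, 6 rose and 1 fell of 9 in complex III, 3 rose and 2 fell of 10 in complex IV, and 7 rose and 2 fell of 17 in complex V.

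Ndufc2, an accessory subunit of the membrane arm of complex I, had values of 878, 1934 and 3000 (lowest, median and highest of 20 libraries) in miNSC, against 307, 519.5 and 560 in 6 fibroblast libraries. The groups did not overlap, and the log2 fold change was 2.03 ± 0.12 (SE; limma, adjusted p = 9.96e-11). Ndufv3, an accessory subunit of the NADH-oxidising module, had 802, 1275 and 2018 in miNSC against 466, 516 and 607 in fibroblasts, again with no overlap (1.25 ± 0.07, adjusted p = 9.88e-11). Ndufa12, related in sequence to an assembly factor, was also higher in every miNSC library than in any fibroblast library, with 488, 610.5 and 1244 in miNSC against 288, 371 and 472 in fibroblasts. Uqcrfs1, the Rieske iron-sulphur protein of complex III, did not overlap between the classes either, at 0.64 ± 0.05 (named after its values were seen). In all, 5 members were higher with no overlap and 1 lower, next to 16.6% and 15.2% of all tested genes.

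Both main subunits of the catalytic head of the ATP synthase rose. Atp5b, the catalytic β subunit, rose by 1.03 ± 0.18 on the log2 scale (adjusted p = 5.02e-05), and Atp5a1, the α subunit, by 0.78 ± 0.08. Values of Atp5b recurred exactly between libraries, such as 28060 and 12122, with 10 distinct values in 28 libraries, so its fold changes come in steps. The part of the unstated normalisation in this recurrence was not tested. Complex II was higher through Sdha, the flavoprotein (0.45 ± 0.05), Sdhb, the iron-sulphur subunit (0.26 ± 0.07), and the membrane anchor Sdhc (0.43 ± 0.07), named after their values were seen, while Sdhd did not pass the test.

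Ndufa4l2, which in hypoxic cells lowers the activity of the chain, was between 0 and 4 in miNSC with a median of 1. It was at 0 and 1 in NSC and at 6 to 197 in fibroblasts, and within those it was 6 and 14 in skin cells, 197 and 144 in 2.5-year and 113 and 136 in 1.0-year tail-tip cells. Thus the skin cells lay far below the tail-tip cells, and the log2 fold change of miNSC against all fibroblasts was -4.96 ± 0.29 (adjusted p = 9.33e-11). Its paralogue Ndufa4 did not pass the test (0.06 ± 0.12, adjusted p = 0.663). Ndufa11, a membrane subunit at the contact of complexes I and III, had 218, 499.5 and 732 in miNSC and 659, 913 and 1346 in fibroblasts, overlapping only slightly (-0.97 ± 0.12, adjusted p = 2.05e-06). Smaller falls were those of Atp5l, subunit g of the ATP synthase (-0.60 ± 0.10), Atp5g1 (-0.54 ± 0.12), Cox6a1, the form of its complex IV subunit outside muscle (-0.43 ± 0.09), and Ndufs5 (-0.41 ± 0.11). With fibroblasts of 1.0-year mice only, Atp5g1 no longer passed (-0.35, adjusted p = 0.115).

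**Figure D2:**
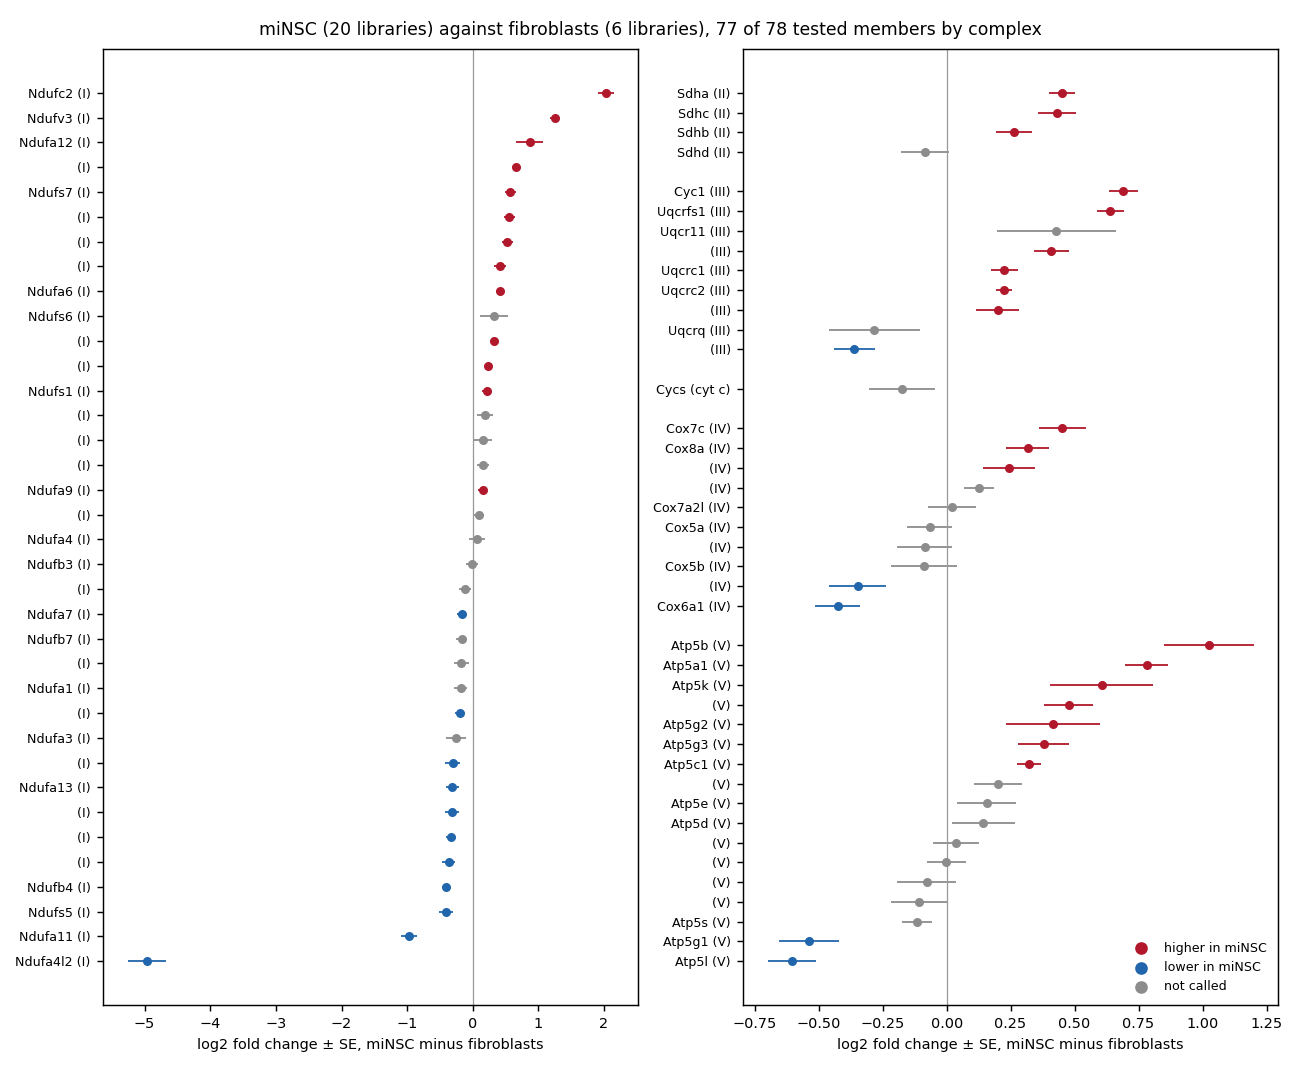
Log2 fold change of miNSC against fibroblasts for 77 of the 78 tested members, by complex, with bars of 1 SE and the calls marked, and names for those given in the text. Ndufc2 and Ndufv3 lie farthest above 0 and Ndufa4l2 at -4.96 far below, while most members stay within 1 unit of 0.

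Genes outside the name rule were read beside the members and beside all tested genes, of which 42.8% were higher and 33.7% lower in miNSC. Of 13 mtDNA-encoded subunits 3 were higher in miNSC, mt-Nd4l (0.92 ± 0.16), mt-Cytb (0.51 ± 0.08) and mt-Atp8 (0.50 ± 0.07), and 2 lower, mt-Co3 (-0.32 ± 0.05) and mt-Co2 (-0.24 ± 0.07). The value of mt-Co1 was 92914 in every library, the highest value of each, so no change in it could be seen. Among 14 regulators of mitochondrial biogenesis 9 were higher and 2 lower. Ppargc1a, which encodes the coactivator PGC-1α, had between 74 and 880 in miNSC libraries and between 0 and 32 in fibroblasts, and Nrf1, a transcription factor for respiratory genes, rose by 0.96 ± 0.04. Pprc1, a coactivator of the same family as PGC-1α, was lower (-0.94 ± 0.14). Of the assembly factors of complex IV 11 of 20 were lower and 6 higher, and of those of complex I 7 of 16 were lower and 5 higher. Of 10 assembly factors of complexes II and III 4 were higher and 3 lower, and of 4 of the ATP synthase 1 and 2. Among 6 measured genes around the chain that the name rule misses, Cox4i1, the ubiquitous subunit IV of complex IV, was higher (0.25 ± 0.06). Higd2a (-0.53 ± 0.08) and Usmg5, a small ATP synthase subunit (-0.51 ± 0.09), were lower.

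Tail-tip lines against the tail-tip fibroblasts of 1.0 years are the one comparison of lines with fibroblasts that is matched for strain, tissue and age. Of 78 members 32 were higher and 8 lower in the lines, with 66.0% of all tested genes called, 36.7% higher and 29.4% lower, and the median was 0.22 against 0.10 over all tested genes. Ndufc2 (2.22 ± 0.21), Ndufv3 (1.45 ± 0.13), Atp5g2 (1.67 ± 0.31), Atp5k, subunit e of the ATP synthase (1.03 ± 0.34), Ndufs7, a core subunit with the last iron-sulphur cluster of complex I (1.01 ± 0.13), and Atp5a1 (0.99 ± 0.14) rose most. Ndufa4l2 (-5.85 ± 0.50), Ndufa11 (-0.95 ± 0.21), Ndufb4, a membrane-arm subunit (-0.60 ± 0.11), and Atp5l (-0.59 ± 0.16) fell most. Leaving out the first or the second fibroblast library took the calls to 25 (20 higher, 5 lower) or 26 (22 and 4). Without the tail-tip BKF line in the comparison and NSC in the fit 55 were called (34 higher, 21 lower). With all lines, Atp5k was not called without the first (0.82, adjusted p = 0.152).

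Atp5g2 had a course of its own. It had 530 and 359 in the tail-tip 4F line at passage 18, 308 and 383 at passage 8, 638 and 712 in the BKF line and 816 and 1169 in the KMF line, all above the 193 and 160 of the 1.0-year tail-tip cells. The 2.5-year tail-tip cells, with 436 and 1074, and skin cells, with 1787 and 1630, lay far above the younger cells, so against all fibroblasts the gene rose by only 0.42 ± 0.18 (adjusted p = 0.0491).

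Neural stem cells were set against the fibroblasts of the same age. Of 78 members 10 were higher and 30 lower, with 65.6% of all tested genes called, 34.4% higher and 31.2% lower, and the median was -0.17 against -0.009. In complex I 13 of 37 were lower and 4 higher, in complex II 1 of 4 and 2, in complex III 3 of 9 and 2, in complex V 8 of 17 and 2, and in complex IV 4 of 10 were lower and 0 higher. Atp5a1 had 13046 and 20143 in NSC at passages 2 and 5, against 8217 and 8418 in skin and 6861 and 7289 in tail-tip cells (1.08 ± 0.16, adjusted p = 1.2e-05). Sdhc, Cyc1, which is cytochrome c1 of complex III, and Sdha rose by 0.53 ± 0.14, 0.40 ± 0.10 and 0.39 ± 0.09. Besides Ndufa4l2 (-4.88 ± 0.55), the largest falls were those of Atp5g2 (-1.45 ± 0.34), Ndufa11 (-1.30 ± 0.23), Atp5e, the ε subunit (-1.17 ± 0.21), and the small complex III subunits Uqcr11 (-1.32 ± 0.43) and Uqcrq (-1.19 ± 0.33).

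The passages differed widely. Uqcr11 was 66 at passage 2 and 338 at passage 5, and Uqcrq was 317 at passage 2 and 960 at passage 5. Without the passage 2 library the calls were 25 (12 higher, 13 lower), and Uqcr11 (-0.15, adjusted p = 0.711) and Uqcrq (-0.39, adjusted p = 0.259) were no longer called. Atp5b, at 12122 and 42158 in NSC, was called higher (0.86 ± 0.33, adjusted p = 0.0287), yet without the passage 5 library its sign turned (-0.04, adjusted p = 0.896), and Sdhc (0.21, adjusted p = 0.143), Cyc1 (0.15, adjusted p = 0.129) and Sdha (0.22, adjusted p = 0.0644) lost their calls. Atp5b was also not called without either skin library or the second tail-tip library, at adjusted p between 0.0512 and 0.0547. With the values corrected for transcript length the split was 29 higher and 15 lower, and the members' median was 0.12 with an all-gene median of 0.13. Markers of neurons (6 measured) summed to 94882 at passage 2 and 35511 at passage 5, and their part was not tested.

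The same NSC libraries served as the standard for the miNSC lines, so the values stand on shared samples. Of 78 members 35 were higher and 3 lower in miNSC than in NSC, with 40.6% of all tested genes called, 20.9% higher and 19.7% lower, and the median was 0.30 against 0.031. Uqcr11 had 296, 536 and 1042 in 20 miNSC libraries and 66 and 338 in NSC (2.02 ± 0.37, adjusted p = 0.000422). Ndufc2 (1.46 ± 0.19), Atp5k (1.40 ± 0.32), Atp5e (1.27 ± 0.18) and Ndufs6, a zinc-binding complex I subunit (1.09 ± 0.33), were higher as well. Only Ndufv3, at 420 and 618 in NSC and never below 802 in miNSC, was both among the 6 largest rises and without overlap (1.26 ± 0.12, adjusted p = 4.53e-07), and 4 members in all were higher and 0 lower with no overlap, next to 3.78% and 4.28% of all tested genes. The falls were small, among them those of Atp5a1 (-0.43 ± 0.13) and Uqcrc1, a core protein of complex III (-0.28 ± 0.08). Without the passage 2 library 14 calls were left (6 higher, 8 lower) with a median of 0.08, and without passage 5 the median was 0.50. Without the first or the second tail-tip BKF library the calls were 44 (41 higher, 3 lower) or 41 (37 and 4). Uqcr11, Ndufc2, Atp5e and Ndufv3 kept their calls without either. Atp5k (0.46, adjusted p = 0.264) and Ndufs6 (0.46, adjusted p = 0.455) lost theirs without passage 2, and the 3 falls were not called without passage 5, at -0.12, adjusted p = 0.539 for Atp5a1.

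BKF lines were compared with KF lines from MEF of both strains, and KMF with KF lines from Sox2-GFP MEF. Each cocktail in a strain is 1 group of 2 libraries, so effects of a factor and differences between lines cannot be told apart. The words with B and with M below stand for these comparisons. In the ICR lines 1 member rose and 1 fell of 78, with 13.1% of all tested genes called, 6.69% higher and 6.42% lower. Atp5e had 1615 and 1698 in BKF and 478 and 678 in KF, with no overlap (1.54 ± 0.24, adjusted p = 0.000349). Ndufv3, with 855 and 802 in BKF against 1138 and 1252 in KF, fell (-0.53 ± 0.16, adjusted p = 0.0382), a call that ended when any of the 4 libraries was left out (adjusted p between 0.0843 and 0.206). With only these groups in the fit limma called 0 members, with 4 at an unadjusted p under 0.05 and an adjusted p of 0.0613 for Atp5e.

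In the Sox2-GFP lines BKF and KMF shared the KF libraries, so their values stand side by side. Against KF, 5 members rose and 5 fell in BKF (37.7% of all tested genes called, 19.2% higher and 18.5% lower) and 8 rose and 3 fell in KMF (39.1% of all tested genes called, 19.9% higher and 19.2% lower). In complex V 4 of 17 rose with B and 3 with M, and 0 fell. In complex I 4 of 37 fell with B and 0 rose, and with M 3 fell and 1 rose. Cycs, the mobile electron carrier, had 1384 and 1213 in BKF and 1736 and 2140 in KMF, against 755 and 826 in KF. KF was lowest, and the test passed for KMF (1.29 ± 0.28, adjusted p = 0.00165) and not for BKF (0.71 ± 0.28, adjusted p = 0.0556). Atp5b had 28060 and 28060 in BKF, 28060 and 32713 in KMF and 10338 and 11648 in KF, a rise of 1.35 ± 0.38 with B (adjusted p = 0.00953) and 1.47 ± 0.38 with M (adjusted p = 0.0054). Cyc1 rose by 0.64 ± 0.12 with B and 0.85 ± 0.12 with M (adjusted p = 0.000492 and 3.34e-05).

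Of the c-subunit genes whose upstream bases are printed above, Atp5g1 had 852 and 814 in BKF, 1030 and 1052 in KMF and 434 and 502 in KF (0.83 ± 0.25 with B and 1.16 ± 0.25 with M). Atp5g3 had 5163 and 4635 in BKF, 5432 and 5432 in KMF and 2784 and 3111 in KF (0.73 ± 0.21 and 0.88 ± 0.21). In both genes all 4 BKF and KMF libraries lay above KF. Atp5g2 had 2078 and 1299 in BKF, 802 and 680 in KMF and 750 and 790 in KF, so it rose with B (1.09 ± 0.39, adjusted p = 0.0382) and did not pass the test with M (-0.06 ± 0.39, adjusted p = 0.968), a difference that was not itself tested. Without the first BKF library the calls with B ended for Atp5g1 (0.80, adjusted p = 0.0764), Atp5g2 (0.75, adjusted p = 0.272) and Atp5g3 (0.66, adjusted p = 0.0817). They ended as well without the first KF library, and that of Atp5g1 without the second BKF and that of Atp5g2 without the second KF library. Atp5b was not called without the first KF library (1.27, adjusted p = 0.0594). The count of members called with B was 6 (2 higher, 4 lower) without the first BKF library and 5 (1 higher, 4 lower) without the first KF library.

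Ndufa6, a subunit of the matrix arm, had 576 and 511 in BKF and 548 and 564 in KMF, against 938 and 896 in KF (-0.76 ± 0.12 with B and -0.72 ± 0.12 with M). Ndufa7 had 586 and 536 in BKF and 747 and 703 in KMF, against 1248 and 1112 in KF (-1.07 ± 0.15 and -0.70 ± 0.15), and Ndufv3 had 847 and 860 in BKF and 850 and 814 in KMF, against 1298 and 1374 in KF (-0.65 ± 0.16 and -0.68 ± 0.16). In each, both KF libraries were above all 4 others. With B, Ndufa9 of the quinone module (-0.38 ± 0.13) and Uqcrc2, a core protein of complex III (-0.32 ± 0.07), fell too, Ndufa9 only with all 4 libraries (adjusted p otherwise between 0.0821 and 0.152). With M, Cox5a of complex IV rose (0.64 ± 0.19), though not without either KF library or the second KMF library (adjusted p between 0.056 and 0.0844).

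Of 14 regulators of mitochondrial biogenesis 10 were higher and 1 lower with B, and with M 9 were higher and 0 lower, beside the 19.2% and 19.9% of all tested genes called higher. Pprc1 had 960 and 1042 in BKF and 944 and 887 in KMF, against 156 and 159 in KF, which were 2.66 ± 0.31 and 2.53 ± 0.31 on the log2 scale. Tfam, which packs mitochondrial DNA and activates its transcription, rose by 0.66 ± 0.13 and 0.51 ± 0.13. Of the complex IV assembly list 7 of 20 rose and 1 fell with B, and 8 rose and 1 fell with M, led by Lrpprc (0.90 ± 0.08 and 0.75 ± 0.08), which stabilises mitochondrial transcripts, and Cox10, an enzyme of haem A synthesis (1.10 ± 0.18 and 1.41 ± 0.18). The mtDNA-encoded subunits went both ways, 1 higher and 2 lower of 13 with B, 2 higher and 3 lower with M. The oligodendrocyte marker Cnp had 1274 and 1138 in BKF and 986 and 1032 in KMF, against 2798 and 2855 in KF, and its part in these differences was not tested.

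The BKF minus KF difference, called the effect below, differed between the strains for 7 members, 5 with a larger and 2 with a smaller value in ICR. Of all tested genes 32.1% were called, 15.8% higher and 16.4% lower. Ndufa7 had 704 and 742 in ICR BKF and 548 and 786 in ICR KF, which overlapped, while the Sox2-GFP lines did not, and the effect in ICR minus that in Sox2-GFP was 1.21 ± 0.21 (adjusted p = 0.000397). Atp5e had 1194 and 989 in Sox2-GFP BKF and 1322 and 1122 in Sox2-GFP KF, which overlapped, while the ICR lines did not, and the difference of effects was 1.70 ± 0.35 (adjusted p = 0.0013). The others were Ndufa6 (0.70 ± 0.17), Ndufa9 (0.51 ± 0.19), Uqcrc2 (0.36 ± 0.09), Atp5b (-1.54 ± 0.53) and Cyc1 (-0.54 ± 0.17). Without the first ICR BKF, the first Sox2-GFP BKF or the second Sox2-GFP KF library 4 calls were left each time.

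ICR lines were compared with Sox2-GFP lines over BKF and KF together. Of 78 members 14 were higher and 2 lower in ICR, with 38.4% of all tested genes called, 19.3% higher and 19.1% lower, and the median was 0.12 against 0 over all tested genes. Cox7a2l, the supercomplex factor, had 1096 and 1138 in ICR BKF and 944 and 1252 in ICR KF, against 2585 and 1927 in Sox2-GFP BKF and 2469 and 2488 in Sox2-GFP KF. The strains did not overlap (-1.09 ± 0.14, adjusted p = 2.09e-05), and the ICR lines had the lowest means of the 14 groups. Higher in ICR were Atp5b (1.17 ± 0.27), Ndufa12 (1.04 ± 0.31), Cox5b of complex IV (0.97 ± 0.19), Cycs (0.75 ± 0.20), Atp5d, the δ subunit (0.66 ± 0.19), and Ndufs1, the largest core subunit of complex I (0.65 ± 0.10). Ndufs1 had 3088 and 3089 in ICR BKF and 3024 and 3336 in ICR KF, all above the 2068 and 1910 of Sox2-GFP BKF and the 1967 and 2018 of Sox2-GFP KF. Cnp had 984 and 1052 in ICR BKF and 576 and 526 in ICR KF, against 1274 and 1138 in Sox2-GFP BKF and 2798 and 2855 in Sox2-GFP KF, and of 6 neuron markers 1 was higher and 2 lower in ICR. Their part was not tested.

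Tail-tip lines were compared with MEF lines of the same strain over BKF and KMF. Of 78 members 5 were higher and 8 lower, with 33.0% of all tested genes called, 15.8% higher and 17.2% lower, and the median was -0.024. Ndufv3 had 1498 and 2018 in tail-tip BKF and 1750 and 1504 in tail-tip KMF, against 847 and 860 in MEF BKF and 850 and 814 in MEF KMF, with no overlap (0.99 ± 0.11, adjusted p = 5.31e-06). Ndufa6 (0.68 ± 0.09) and Ndufa7 (0.47 ± 0.11) were higher too. Ndufa11 had 319 and 426 in tail-tip BKF and 218 and 273 in tail-tip KMF, against 581 and 562 in MEF BKF and 661 and 586 in MEF KMF, again with no overlap (-0.99 ± 0.19, adjusted p = 0.000711). Cycs (-0.74 ± 0.20), Ndufs1 (-0.46 ± 0.10) and Cyc1 (-0.45 ± 0.08) were lower. Calls went to 8 (4 higher, 4 lower) without the first MEF BKF library, 7 (3 and 4) without the first MEF KMF library and 8 (3 and 5) without the first tail-tip KMF library. The tail-tip BKF libraries set the split of calls, with 12 higher and 4 lower without the first and 3 higher and 11 lower without the second.

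**Figure D3:**
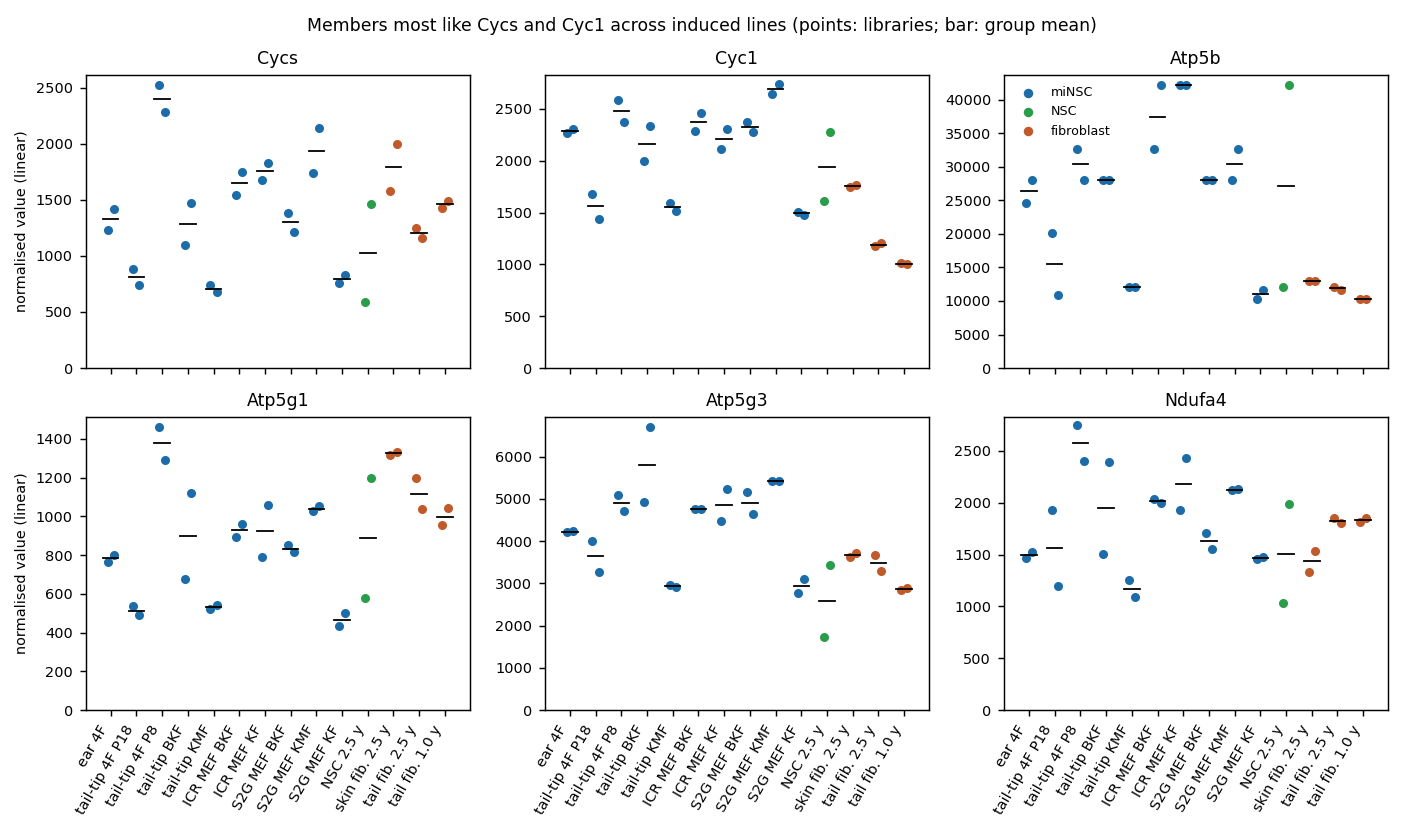
Values of Cycs, Cyc1, Atp5b, Atp5g1, Atp5g3 and Ndufa4 in each of the 28 libraries, by group, with bars at the group means. Among the miNSC groups all are high in the tail-tip 4F line at passage 8 and low in tail-tip KMF, and Cycs, Cyc1, Atp5b, Atp5g1 and Atp5g3 are low in Sox2-GFP KF.

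Over the 10 miNSC group means, which share one normalisation and include 2 passages of one line, Cycs had a Pearson correlation of 0.97 with Atp5g1, 0.93 with Cyc1, 0.92 with Ndufa4 and 0.89 with Atp5b, the 4 highest among members, and -0.66 with Ndufv3, the lowest. For Atp5b the closest members were Uqcrc1 (0.91), Cyc1 (0.90) and Atp5g3 (0.89). All 3003 pairs of members had a median of 0.39, and pairs within a complex, at 0.36, were no closer than pairs between complexes, at 0.40. Of the regulators of mitochondrial biogenesis, Pprc1 (0.89) and Tfam (0.79) were closest to Cycs. Others were lower, such as Ppargc1a (0.36), Gabpa (0.13) and Nrf1 (0.08), and Tfb1m (-0.03) and Polg2 (-0.45) were negative. These are descriptions of 10 points, and nothing was tested on them.

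The tail-tip 4F line at passage 8 entered the next 4 comparisons, which therefore share its 2 libraries. Against the tail-tip KMF line its median log2 fold change of the members was the largest in size of the comparisons given here. Of 78 members 46 were higher and 3 lower, with 35.5% of all tested genes called, 18.1% higher and 17.4% lower, and the median was 0.62 against -0.036. Every complex took part. In complex I 17 of 37 rose and 1 fell, in complex II 2 of 4 rose, in complex III 8 of 9, in complex IV 8 of 10, in complex V 10 of 17 rose and 2 fell, and Cycs rose. The 2 lines did not overlap for 66 members higher and 6 lower in 4F, next to 33.0% and 35.6% of all tested genes.

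Cycs had 2520 and 2286 in 4F and 739 and 678 in KMF (1.76 ± 0.28, adjusted p = 0.000134). Cox8a, the form of its complex IV subunit outside muscle, had 3552 and 3476 in 4F against 1608 and 1210 in KMF (1.33 ± 0.18, adjusted p = 3.12e-05), and Cox5b had 1021 and 1024 in 4F against 470 and 350 in KMF (1.33 ± 0.28). In all 3 genes both 4F libraries had more than 2-fold the value of either KMF library. Uqcr11 had 996 and 1042 in 4F against 423 and 296 in KMF (1.52 ± 0.50, adjusted p = 0.026). Atp5k had 267 and 286 in 4F against 96 and 80 in KMF (1.65 ± 0.43). Neither gene's libraries overlapped between the lines. For the c subunit, Atp5g1 had 1464 and 1290 in 4F against 523 and 543 in KMF (1.37 ± 0.25) and Atp5g3 5090 and 4710 in 4F against 2964 and 2922 in KMF (0.73 ± 0.21). Atp5g2 went the other way, with 308 and 383 in 4F and 816 and 1169 in KMF (-1.51 ± 0.39, adjusted p = 0.00672). Atp5s (-0.68 ± 0.12) and Ndufv3 (-0.60 ± 0.16) were the other falls.

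Lists of genes around the chain are read beside the 18.1% of all tested genes called higher. Of the complex IV assembly list 12 of 20 were higher and 0 lower, led by Cox10 (1.29 ± 0.18) and Lrpprc (0.56 ± 0.08). Of the complex I assembly list 7 of 16 were higher, led by Ndufaf8 (2.46 ± 0.22) and Ecsit (1.71 ± 0.19), and of the TCA cycle list 8 of 19, among them Dlat of pyruvate dehydrogenase (0.60 ± 0.07) and Idh3a of isocitrate dehydrogenase (1.24 ± 0.16). Pprc1 had 1187 and 1004 in 4F and 140 and 114 in KMF, and 7 of 14 regulators were higher. Of the assembly factors of complexes II and III 2 of 10 were higher, and of those of the ATP synthase 1 of 4. The mtDNA-encoded subunits did not follow, with mt-Nd1 higher (0.38 ± 0.10) and mt-Atp8 (-0.63 ± 0.15), mt-Nd6 (-0.56 ± 0.07) and mt-Atp6 (-0.33 ± 0.11) lower of 13. Cnp had 842 and 1166 in 4F and 4304 and 3924 in KMF, and its part was not tested. Without the first or the second 4F library 29 (28 higher, 1 lower) or 31 (28 and 3) members were called, and without the second KMF library 22 (20 and 2). Uqcr11 lost its call in each of these (1.27, adjusted p = 0.161 without the second KMF library). Atp5g2 lost it without the first 4F library (-1.35, adjusted p = 0.0581) or the second KMF library (-1.25, adjusted p = 0.0731), Ndufv3 without the first 4F or the first KMF library (-0.47, adjusted p = 0.09 and -0.49, adjusted p = 0.0815), and Atp5k without the second KMF library (1.52, adjusted p = 0.0531). With the tail-tip BKF and NSC libraries out of the fit 63 were called (59 higher, 4 lower).

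Against the tail-tip BKF line the 4F line had 3 members higher and 8 lower, with 26.1% of all tested genes called, 13.1% higher and 12.9% lower and a median of 0.047. Cycs had 2520 and 2286 in 4F and 1096 and 1476 in BKF (0.92 ± 0.28, adjusted p = 0.0237), and Atp5s had 92 and 88 in 4F against 132 and 151 in BKF (-0.64 ± 0.12, adjusted p = 0.00118). Atp5c1, the γ subunit that turns with the c ring, fell as well (-0.50 ± 0.10). Ndufa4l2 was listed at 0 in both 4F libraries and at 3 and 2 in BKF. Without the first BKF library 0 members were higher and 20 lower, and the median was -0.26, and without the second 15 were higher and 2 lower, and the median was 0.31. Without the first or second 4F library 2 and 5 members were called, all lower, and Cycs kept its call only without the second BKF library (adjusted p otherwise between 0.0613 and 0.158). With only these groups in the fit limma called 0 members, with 8 at an unadjusted p under 0.05.

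The ear 4F line was compared with the tail-tip 4F line at passage 8, the passage of the ear line not being given. Of 78 members 2 were higher and 27 lower, with 27.2% of all tested genes called, 13.3% higher and 13.8% lower, and the median was -0.34 against 0.019. In complex I 15 of 37 fell, in complex III 2 of 9, in complex IV 6 of 10, in complex V 3 of 17 and in complex II 0 of 4, and Cycs fell. The median was -0.59 in complex IV, -0.33 in I, -0.26 in III, -0.21 in V and 0.008 in II, and these were not compared by a test. The lines did not overlap for 16 members higher and 56 lower in the ear line, next to 35.0% and 31.6% of all tested genes. Cox7c, a small complex IV subunit, had 1829 and 1787 in the ear line and 3734 and 3709 in the tail-tip line (-1.04 ± 0.20, adjusted p = 0.000847). Cox5b had 470 and 451 in the ear line against 1021 and 1024 in the tail-tip line (-1.15 ± 0.28), and Ndufa3, in the membrane arm of complex I, had 194 and 188 in the ear line against 504 and 562 in the tail-tip line (-1.47 ± 0.33). Both ear libraries were below both tail-tip libraries in each. Ndufs6 (-1.39 ± 0.45), Atp5l (-1.03 ± 0.20) and Ndufb3 (-0.93 ± 0.21) fell as well, though Ndufs6 only with all 4 libraries (adjusted p otherwise between 0.0872 and 0.129). Atp5g2 was higher, with 1200 and 999 in the ear line against 308 and 383 in the tail-tip line (1.67 ± 0.39, adjusted p = 0.00481), and so was Atp5s, with 138 and 151 in the ear line against 92 and 88 in the tail-tip line (0.68 ± 0.12). Calls were 12 without the first ear library (2 higher, 10 lower), 16 without the second (2 and 14), 15 without the first tail-tip library (2 and 13) and 13 without the second (2 and 11).

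Passage 18 of the tail-tip 4F line was set against passage 8. Of 78 members 4 were higher and 11 lower, with 35.1% of all tested genes called, 17.5% higher and 17.6% lower, and the median was -0.16 against 0.026. The members' median shift between the passage 18 libraries, -0.221 for the second against the first, was larger in size than that median. Cycs had 880 and 741 at passage 18 and 2520 and 2286 at passage 8 (-1.57 ± 0.28, adjusted p = 0.000424), and Atp5g1 had 536 and 492 at passage 18 against 1464 and 1290 at passage 8 (-1.42 ± 0.25, adjusted p = 0.000439). Cyc1 had 1683 and 1438 at passage 18 against 2586 and 2372 at passage 8 (-0.67 ± 0.12). Atp5b (-1.03 ± 0.38), Ndufa4 (-0.76 ± 0.26) and Atp5a1 (-0.70 ± 0.18) fell as well, though without the second passage 18 library Atp5b was -0.59, adjusted p = 0.386, Ndufa4 -0.41, adjusted p = 0.367 and Atp5a1 -0.62, adjusted p = 0.0593. Atp5b and Ndufa4 were not called without either passage 8 library, and Atp5a1 not without the second. Ndufa6 had 1308 and 1427 at passage 18 and 755 and 876 at passage 8 (0.75 ± 0.12, adjusted p = 0.000198), Ndufv3 had 1959 and 1736 at passage 18 against 986 and 1168 at passage 8 (0.78 ± 0.16), and Cox7a2l had 2520 and 2834 at passage 18 against 1648 and 1862 at passage 8 (0.61 ± 0.20), the last called only with all libraries or without the first passage 18 library (adjusted p otherwise between 0.0502 and 0.155). Pprc1 was at 343 and 428 at passage 18 against 1187 and 1004 at passage 8 (-1.51 ± 0.31), and 9 of 20 complex IV assembly genes were lower and 0 higher. Cnp had 4568 and 5321 at passage 18 and 842 and 1166 at passage 8, and its part was not tested. Calls came to 6 (3 higher, 3 lower) without the second passage 18 library, 8 (2 and 6) without the first passage 8 library and 9 (3 and 6) without the second.

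**Figure D4:**
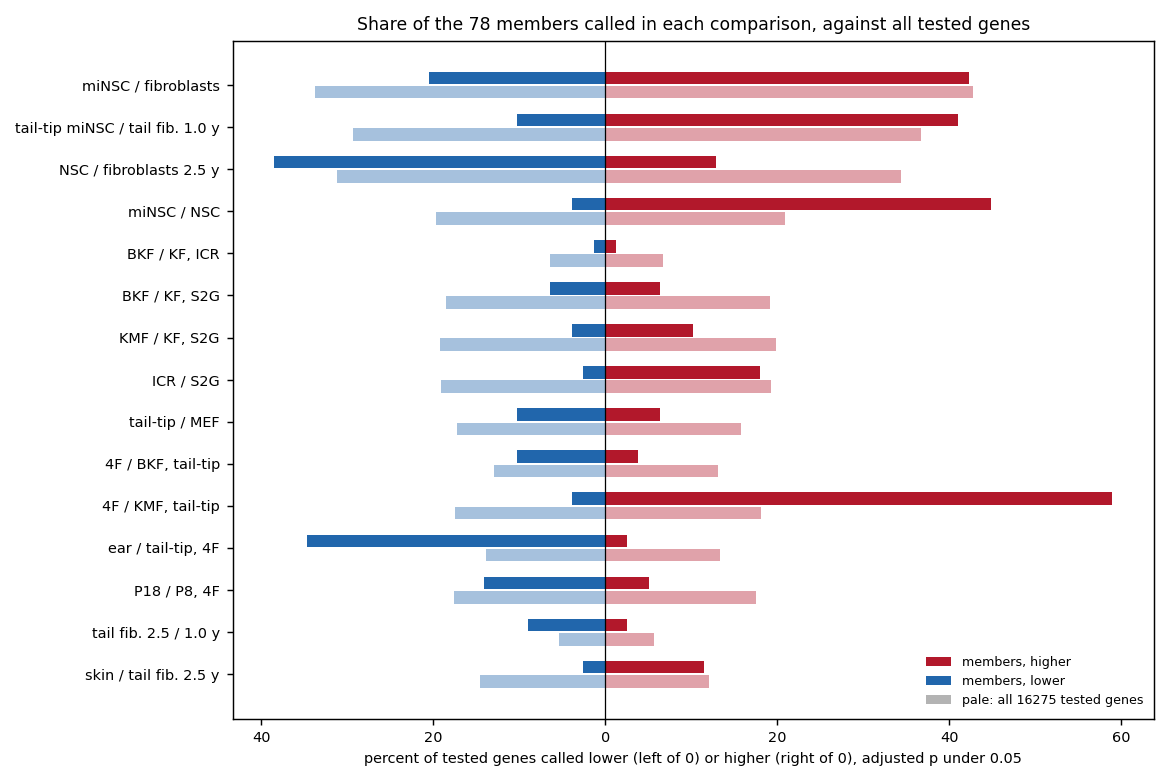
Percent of the 78 tested members called higher and lower in each comparison, beside the percent of all 16275 tested genes. The share called higher is farthest above the background in 4F against KMF tail-tip lines, and the share called lower in the ear against the tail-tip 4F line.

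Among fibroblasts, tail-tip cells of 2.5 years were compared with those of 1.0 years. Of 78 members 2 were higher and 7 lower, with 11.0% of all tested genes called, 5.63% higher and 5.41% lower, and the median was -0.027. Atp5g2 had 436 and 1074 at 2.5 years and 193 and 160 at 1.0 years (1.96 ± 0.39, adjusted p = 0.0044), and Ndufs7 rose by 0.62 ± 0.17. Cox8a had 1421 and 1148 at 2.5 years and 2520 and 2391 at 1.0 years (-0.94 ± 0.18, adjusted p = 0.00328). Ndufa3 had 256 and 206 at 2.5 years and 462 and 560 at 1.0 years (-1.14 ± 0.33). In each of the 3 genes with values given, the ages did not overlap. Ndufa1 (-0.80 ± 0.21), Ndufb3 (-0.70 ± 0.21), Ndufb4 (-0.57 ± 0.13) and Ndufa6 (-0.44 ± 0.12), accessory subunits of complex I, fell too. Of 7 leukocyte markers 5 were measured and 3 were higher at 2.5 years, with sums of 1307 and 1305 against 338 and 332 at 1.0 years, and their part in these values was not tested. No call withstood leaving out every library in turn. Without the second 2.5-year library 0 members were called by limma, with 10 at an unadjusted p under 0.05, without the first 4 (2 higher, 2 lower), and without the first or the second 1.0-year library 2 each (1 and 1). Atp5g2 and Cox8a were then called except without the second 2.5-year library (1.31, adjusted p = 0.0795 for Atp5g2 and -0.79, adjusted p = 0.0516 for Cox8a).

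Skin fibroblasts of 2.5 years were compared with tail-tip cells of the same age, whose libraries also served the comparison by age. Of 78 members 9 were higher and 2 lower, with 26.6% of all tested genes called, 12.0% higher and 14.5% lower, and the median was 0.18 against 0. Ndufa4l2 had 6 and 14 in skin cells and 197 and 144 in tail-tip cells (-4.05 ± 0.63), and it met the filter only through the tail-tip cells. Atp5g2 had 1787 and 1630 in skin cells against 436 and 1074 in tail-tip cells (1.32 ± 0.39, adjusted p = 0.0203), and Ndufs7 (0.72 ± 0.17), Ndufa13 (0.65 ± 0.21), Ndufb7 (0.62 ± 0.17) and Cyc1 (0.56 ± 0.12) were higher. Sdha was lower (-0.33 ± 0.11). Here 3 of the 5 measured leukocyte markers were lower in skin cells, with sums of 486 and 457 against 1307 and 1305 in tail-tip cells, and their part was not tested. Calls were 5 (4 higher, 1 lower) without the first skin library, 3 (2 and 1) without the second, and 5 (4 and 1) without the first tail-tip library, which ended the calls of Atp5g2 (0.67, adjusted p = 0.297), Ndufs7 (0.59, adjusted p = 0.0587) and Sdha (-0.26, adjusted p = 0.22). Atp5g2 and Sdha were not called without either skin library. Ndufa13 and Ndufb7 were not called without the second skin library (0.57, adjusted p = 0.163 and 0.52, adjusted p = 0.115) or the second tail-tip library, and Ndufa13 not without the first skin library either.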

How the data were processed

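Poly(A) RNA was selected with oligo(dT) from Trizol extracts and copied with random hexamers, per the labels' protocols. The authors deposited 1 table of whole-number scores for 17295 genes in 28 libraries. RSEM, Bowtie2 2.0 and mm10 are named by the submitters' processing notes without their roles, and the normalisation is not given in the sources used here. Library sums lay between 15563679 and 15571626, the highest value of 92914 recurred in every library, and no libraries were identical, so the scores were treated as normalised values and no count model was used. All 17295 genes were matched to GENCODE M21 on GRCm38 for names and transcript lengths.

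The values were put on the log2(value + 1) scale, genes with a mean of at least 10 were kept (16275), and 1 model with a term for each of the 14 groups was fitted with limma 3.58.1 in R 4.3.3, with a trend in the prior. A gene was called at a Benjamini-Hochberg adjusted p under 0.05 over all tested genes. Fold changes on this scale understate changes of low genes, and every ± beside a log2 fold change is its SE. Comparisons of several groups weighted the groups equally. The script was tested on simulated data. Members, lists and tests were chosen with earlier results of these data known. Up to 6 called members with the largest rise and 6 with the largest fall were named in each comparison, with isoform families, mtDNA-encoded subunits and regulators, and from other lists up to 4 with the smallest adjusted p. Further members are said to be named after their values were seen. Alternatives changed the pseudocount to 10, the filter to none or 100, the centring, length and GC correction, the prior, the groups in the fit and a replicate block, or left out each library. Promoter windows came from RefSeq. Results on some genes are not reported here.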

Additional observations from a re-analysis of the deposited data

Results flagged for a closer look

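The BKF minus KF difference was not the same in ICR and Sox2-GFP lines for 7 members. This came from the interaction term of the limma model over all genes with Benjamini-Hochberg adjustment. Each value is the log2 difference in ICR minus that in Sox2-GFP. With 2 libraries a line, effects of a factor and differences between lines cannot be told apart. Atp5e differed by 1.703 (adjusted p = 0.0013), with 1615 and 1698 in ICR BKF and 478 and 678 in ICR KF, and 1194 and 989 in Sox2-GFP BKF and 1322 and 1122 in Sox2-GFP KF. Ndufa7 differed by 1.209 (adjusted p = 0.000397), Ndufa6 by 0.703 (adjusted p = 0.0049), Ndufa9 by 0.512 (adjusted p = 0.0495) and Uqcrc2 by 0.362 (adjusted p = 0.00679). In these 4 the Sox2-GFP BKF libraries lay below the KF libraries and the ICR libraries of BKF and KF lay closer together. Atp5b differed by -1.537 (adjusted p = 0.0368), with 32713 and 42158 in ICR BKF and 42158 and 42158 in ICR KF, and 28060 and 28060 in Sox2-GFP BKF and 10338 and 11648 in Sox2-GFP KF. Cyc1 differed by -0.536 (adjusted p = 0.0218).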

How the results depend on the processing

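Of 167 recounts of called members over 17 comparisons, other than those that left out a library, 142 stayed within 1.5 times the count reported. With only the groups compared in the fit, 16 members were called in NSC against fibroblasts, 0 for BKF against KF in ICR and 17 in Sox2-GFP, 28 for KMF against KF, 0 for 4F against BKF, 5 for passage 18 against 8, 15 for tail-tip cells of 2.5 against 1.0 years, 21 for skin against tail-tip cells and 13 for the strain difference. With each group's mean as 1 sample, 21 were called in miNSC against fibroblasts. With length correction the counts were 20 for KMF against KF and 24 for passage 18 against 8, and the split of higher and lower calls was 46 and 9 in miNSC against fibroblasts, 29 and 15 in NSC against fibroblasts, 23 and 7 in miNSC against NSC, and 4 and 8 in tail-tip cells by age. Leaving the tail-tip BKF and NSC libraries out of the fit, an alternative chosen after seeing the data, gave 4 for BKF against KF in ICR, 22 in Sox2-GFP, 23 for KMF against KF, 32 for ICR against Sox2-GFP, 47 for the ear against the tail-tip 4F line, 33 for passage 18 against 8, 25 by age, 23 for skin against tail-tip and 17 for the strain difference. Replicate numbers did not pair the libraries, since deviations of same-numbered libraries correlated between -0.055 and 0.071 over 78 pairs of groups, none above 0.1. The replicate block gave 20 calls for tail-tip against MEF, 18 for 4F against BKF, 25 for passage 18 against 8 and 13 for the strain difference. NSC libraries are numbered by passage, so those comparisons had no block. For these counts and those below, the share of all tested genes called under the same fit is not given. Changes in them are therefore not read as results about the members, and their cause was not tested.

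With each library left out in turn, calls ranged from 41 to 51 in miNSC against fibroblasts, 25 to 47 in tail-tip lines against tail-tip cells, 25 to 40 in NSC against fibroblasts, 14 to 44 in miNSC against NSC, 1 to 1 and 5 to 8 for BKF against KF in ICR and Sox2-GFP, 9 to 10 for KMF against KF, 15 to 18 for ICR against Sox2-GFP, 7 to 16 for tail-tip against MEF, 2 to 20 for 4F against BKF, 22 to 36 for 4F against KMF, 12 to 16 for ear against tail-tip, 6 to 19 for passage 18 against 8, 0 to 4 by age, 3 to 8 for skin against tail-tip, 4 to 7 for the strain difference and 44 to 68 among miNSC groups. Of 2485 values of named members under all alternatives, 2284 kept direction and call, 200 kept the direction and lost the call, and 1 reversed, Atp5b in NSC against fibroblasts, at -0.038 without the passage 5 library and 1.76 without passage 2. Depth is unknown, so no floor could be given for low members such as Cox6b2 and Ndufa4l2.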
